A study of Mus musculus with 6 samples.

Results

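Chemokines and their receptors were followed across the cells of mouse liver in these data. The members were all gene symbols in the deposited gene lists that begin with Ccl, Cxcl, Ccr or Cxcr and a number, together with Cx3cl1, Cx3cr1, Xcl1, Xcr1, Pf4, Ppbp and the atypical receptors Ackr1 to Ackr4. This gave 61 of 25369 genes, between 54 and 58 of them listed in a library, and every member had at least 1 molecule in a cell. They held 432479 of the counted RNA molecules (unique molecular identifiers, UMIs) in cells, or 0.242% of the total. The 61 comprised 37 ligands, 22 receptors and 2 other symbols, the pseudogene Ccl19-ps2 and the receptor-like Ccr1l1.

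Chemokines are small secreted proteins that bind glycosaminoglycans on cell surfaces and steer leukocytes through receptors coupled to Gi proteins. Atypical receptors bind chemokines without that signal and take them up. In liver, sinusoidal endothelium, stellate cells and resident macrophages are known sources, and circulating monocytes, lymphocytes and granulocytes are known receivers.

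All 6 libraries came from livers of wild-type male mice whose inferior vena cava had been partly tied off (pIVCL), which congests the liver, at 8 to 10 weeks of age. Pumps were placed 2 weeks after surgery and released either the vehicle DMSO (3 libraries) or CWHM-12, an inhibitor of integrins that contain the αV subunit, at 100 mg/kg/day (3 libraries), and livers were taken 4 weeks later. No library came from an unligated mouse, so both groups share the congestion. Livers were digested with pronase and collagenase, and the suspension was set to 90% nonparenchymal cells and 10% hepatocytes before a density gradient. The share of a class therefore reflects handling, and only levels within classes are compared. Each library is labelled as a sample from a mouse, but no mouse identifiers are given, so p-values measure the spread between libraries.

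The libraries held between 28220477 and 48100436 UMIs each over 10000 barcodes, and 37982 cells were used, from 3128 in DMSO 2 to 8346 in CWHM-12 2. No pair of libraries shared more than 5 barcodes. The labels place DMSO 1, DMSO 2 and CWHM-12 1 in batch 2024.6, and DMSO 3, CWHM-12 2 and CWHM-12 3 in batch 2024.12. Cells fell into 44 clusters that were formed without the member genes, and 37 clusters were named from marker genes as 19 classes. A class name means cells that resemble the name. The cluster called basophil or mast cell was led by Prss34, Mcpt8 and Cpa3 but also by Mpo, Elane and Prtn3, genes of granulocyte precursors. The class called cDC2, the second type of conventional dendritic cell, was led by Cd209a and Mgl2 but scored highest for markers of mature dendritic cells. Levels are in CPM, the summed counts of a gene scaled to a common total of UMIs of the class in a library (with TMM factors), and classes with at least 20 cells in at least 2 libraries of each group were tested, which gave 17.

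The promoters of 3 ligands are shown because their transcripts had their top class in LSEC (liver sinusoidal endothelial cells) or stellate cells, and differed between clusters of these classes in every library. They are examples chosen after the values were seen, and Cxcl14 shares these features. Each line gives the 150 bases before the start of the gene in RefSeq (build GRCm38.p6), read 5′ to 3′ on the strand of the gene. Capitals mark matches on either strand to a loose form of the binding site of NF-κB proteins, spelled GGG, any 5 bases, CC. Overlapping matches are merged.
Cxcl9, chr5:92328080-92328229, minus strand: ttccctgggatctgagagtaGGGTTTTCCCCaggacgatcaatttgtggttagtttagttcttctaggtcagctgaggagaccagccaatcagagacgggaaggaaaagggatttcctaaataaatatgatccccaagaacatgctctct
Cxcl10, chr5:92348890-92349039, minus strand: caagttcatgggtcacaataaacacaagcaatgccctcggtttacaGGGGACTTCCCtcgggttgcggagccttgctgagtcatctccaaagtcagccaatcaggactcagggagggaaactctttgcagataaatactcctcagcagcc
Cxcl12, chr6:117168385-117168534, plus strand: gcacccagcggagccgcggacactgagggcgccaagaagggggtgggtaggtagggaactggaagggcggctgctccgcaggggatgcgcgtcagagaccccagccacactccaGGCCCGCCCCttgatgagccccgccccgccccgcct
RefSeq held a promoter for 46 members. Within 250 bases before the start, this NF-κB pattern occurred in 26 of the 46, against 48.7% of all 27025 genes, so the letters are common. The core of an interferon response element, spelled GAAA, any 2 bases, GAAA, occurred on either strand in 3 of the 46 (Ccl19, Cxcl10 and Cxcl14), against 3.46% of all genes. In Cxcl10 it lies 213 to 204 bases before the start, outside the stretch printed. A match is a description of letters and not a bound site.

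Of the 61 members, 47 reached a mean of 10 CPM in at least 1 tested class, and each is described in the class where its mean was highest. These were 27 ligands, 19 receptors and Ccl19-ps2. The other 14 stayed lower: Ccl1, Ccl11, Ccl20, Ccl21a, Ccl21d, Ccl28, Ccr10, Ccr1l1, Ccr8, Cxcl17, Cxcl3, Cxcl5, Cxcr1 and Ppbp. Stellate cells were the top class for 7 members, scar-type macrophages for 6, neutrophils for 5, and LSEC and the basophil class for 4 each. All orders of classes are descriptions with no test.

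**Figure D1:**
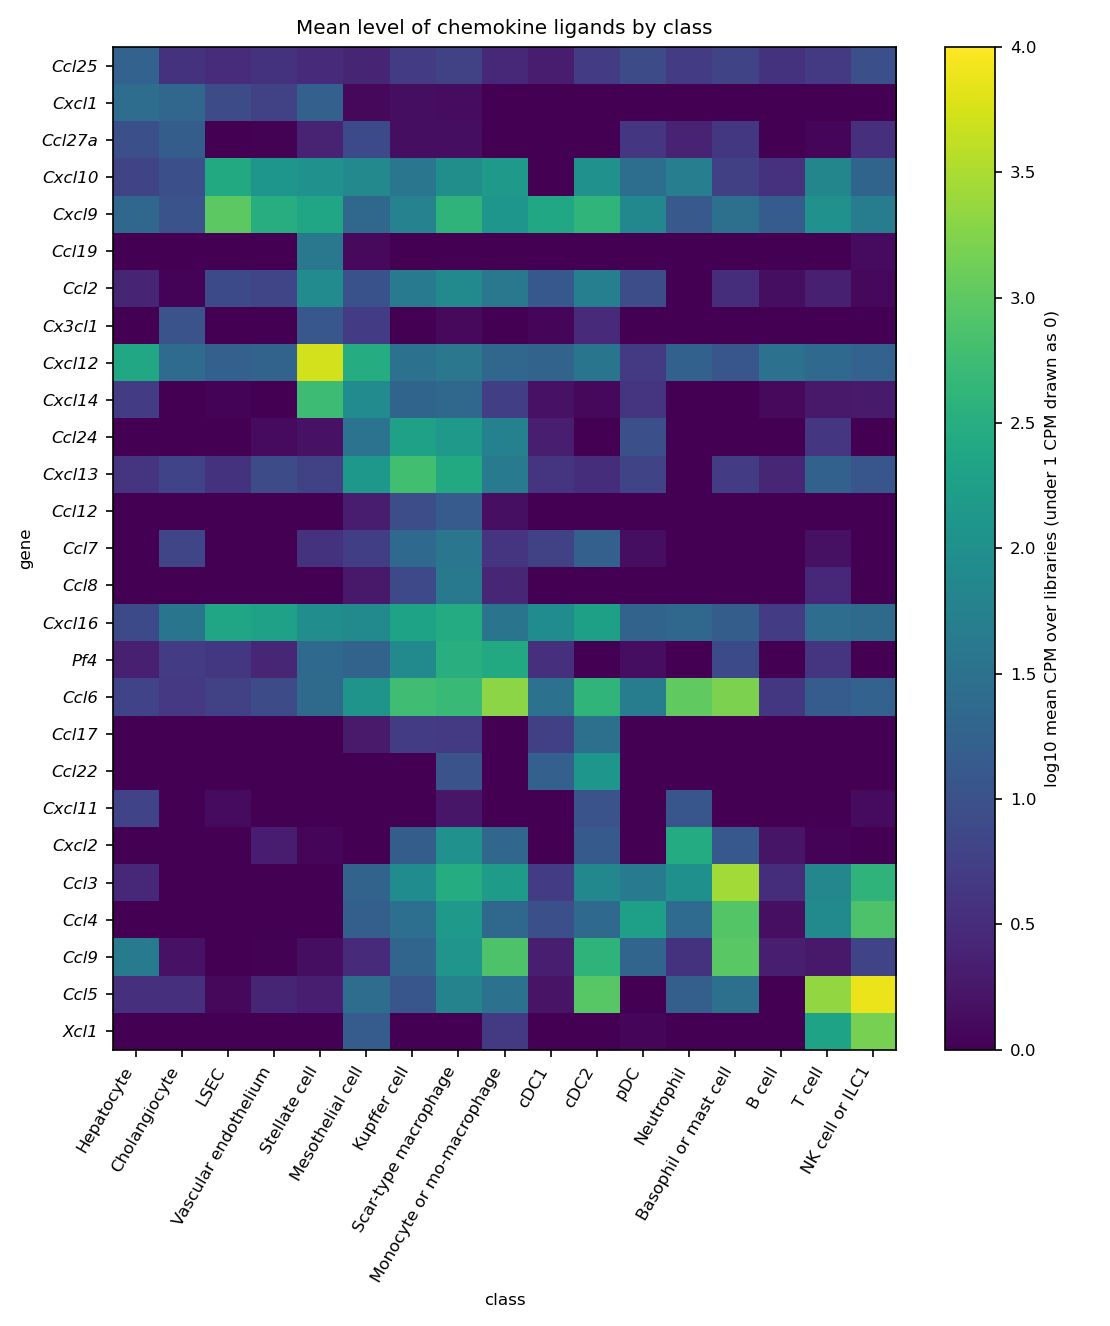
Mean level of the 27 ligands that reached 10 CPM (rows) in the 17 tested classes (columns), as log10 of the mean CPM over libraries, with means under 1 CPM drawn as 0. Cxcl12 in stellate cells and Ccl5 in the NK class are the brightest cells, while Cxcl9 and Cxcl16 are spread over many classes.

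Among the inflammatory CC ligands, Ccl2, the main attractant of monocytes, had no single source. Its level in stellate cells ran from 45.8 to 140 CPM over 6 libraries with a median of 69.7, and in scar-type macrophages from 43.1 to 132 CPM. The order of these classes differed between libraries, with stellate cells higher in 3 of 6. Kupffer cells, the resident macrophages, held 46.2 ± 10.5 CPM (SD, n = 6). Ccl7 and Ccl12, which also attract monocytes, and Ccl8, listed here as a ligand of Ccr8, were highest in scar-type macrophages at means of 37.6, 14.3 and 41.8 CPM. Ccl8 had the widest spread of the trio, from 1.46 CPM in CWHM-12 1 to 167 CPM in CWHM-12 3. The class held only 35 cells and 185620 UMIs in CWHM-12 3, against 73 to 187 cells in the other libraries. The scar-type class is named after the Trem2 and Gpnmb macrophages described in fibrotic liver. Its leading genes were Mmp13, Retnla, Mmp12 and Cd207, with Gpnmb and Trem2 further down. Trem2 was also a leading gene of Kupffer cluster 4, so it does not set the class apart.

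Ccl5, an attractant of T cells and NK cells, was highest in the NK and T cell classes. The T cell clusters 17 and 21, described below, overlapped in range, at means of 2337.9 and 2112.5 CPM. In the class of NK cells and ILC1 it ran from 5271 to 9528 CPM with a median of 8125, and in T cells from 1315 to 3038 CPM, lower in 6 of 6 libraries. The cDC2 class came next at 917 CPM. The median over the remaining classes was 3.59 CPM. Ccl3 and Ccl4, made by activated leukocytes, were highest in the basophil class at 2739.6 and 863 CPM, where only 4 libraries had enough cells. Ccl3 there varied from 712 to 4979 CPM. For Ccl4 the NK class was about as high, at 774 CPM, and stood below the basophil class in 2 of 4 libraries.

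Ccl6 and Ccl9, rodent ligands of Ccr1, were myeloid. Monocytes and monocyte-derived macrophages held Ccl6 at 893 to 4192 CPM, the basophil class at 384 to 3450 CPM, and 14 of 19 classes reached 10 CPM. For Ccl9, the basophil class (931 CPM) and monocytes (763 CPM) overlapped in range. Ccl24, an eotaxin that attracts eosinophils through Ccr3, was highest in Kupffer cells at 155 to 254 CPM, above scar-type macrophages in 5 of 6 libraries.

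The homing ligands were low, and some were spread over classes. Ccl19, which guides Ccr7 cells into lymphoid tissue, was at 25.8 to 45.7 CPM in stellate cells. Its mean in the NK class, the next tested class, was 1.30 CPM. Ccl19 reached 10 CPM in 2 of all 19 classes, so also in a class that was not tested. Portal fibroblasts, untested and with enough cells in only 2 libraries, held the homing CC ligands together at a mean of 58.6 CPM. Stellate cells held these ligands together at 45.6 CPM. Ccl19-ps2 was at 75.6 CPM in stellate cells. The copies are near-identical in sequence, so the split of their UMIs is uncertain, and the same holds for Ccl21a and Ccl21d. Ccl22 and Ccl17, both ligands of Ccr4, were highest in the cDC2 class at 128 and 29.7 CPM. Ccl22 ran from 58.3 to 252 CPM there, above cDC1 in 5 of 5 libraries, and Ccl17 was above cDC1 in 3 of 5. Ccl25, the ligand of Ccr9, was highest in hepatocytes at 4.30 to 45.3 CPM, and Ccl27a, a ligand of Ccr10, in cholangiocytes at 14.95 CPM. Ccl25 was above the NK class in 4 of 6 libraries, and its mean was at least 2.05 CPM in every tested class. Ccl27a was above hepatocytes (9.61 CPM) in 4 of 6 libraries.

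Ligands of the neutrophil receptor Cxcr2 were scarce. Cxcl2 ran from 70.2 to 585 CPM in neutrophils (n = 4 libraries) and averaged 106 CPM in scar-type macrophages. Cxcl1 was at 6.0 to 54.6 CPM in hepatocytes and overlapped with cholangiocytes, at 7.7 to 62.4 CPM. DMSO 2 held the highest value of Cxcl1 in both. Cxcl3, Cxcl5 and Ppbp did not reach 10 CPM.

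Of the interferon-induced ligands of Cxcr3, Cxcl9 and Cxcl10 were strongest in LSEC. Cxcl9 ran from 344 CPM in CWHM-12 3 to 1362 CPM in DMSO 2, with a median of 1123, and no other class had a higher mean. Its mean reached 10 CPM in all 19 classes. In T cells it was at 267, 128 and 10.2 CPM in DMSO and 205, 26.9 and 0 CPM in CWHM-12, where LSEC markers summed to 3076, 3196 and 152 CPM and to 4875, 761 and 753 CPM, and their part in the low levels of other classes was not tested. In cDC2 cells the mean of 414 CPM rested on DMSO 2, at 2053 CPM against 11.1 to 204 CPM in the other 5 libraries. Scar-type macrophages (124 to 842 CPM) and vascular endothelium (92.7 to 511 CPM) overlapped with each other. Cxcl10 was at 214 to 360 CPM in LSEC, followed by monocytes at 145 CPM. Cxcl11 had its highest mean in neutrophils, at 11.8 CPM, with a median of 0 and a maximum of 47.1 CPM over 4 libraries. In hepatocytes Cxcl10 averaged 6.63 CPM.

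Cxcl12 and Cxcl14 were stellate genes. Cxcl12, which retains hematopoietic cells through Cxcr4, had the most UMIs of the members, 95328. It ran from 4645 to 7253 CPM in stellate cells with a median of 5062. Portal fibroblasts, which had enough cells in only 2 libraries, averaged 5338 CPM. The rest of the classes stood far lower, at a median of 21.1 CPM, with hepatocytes at 179 to 395 CPM. Stellate marker genes also reached 135 to 904 CPM in the hepatocyte class, and their part in that level was not tested. Cxcl14, a chemokine made in resting tissues, was at 206 to 805 CPM in stellate cells, above mesothelial cells in 5 of 5 libraries. Cx3cl1, the membrane-bound ligand fractalkine, was low throughout, at 11.98 CPM in stellate cells and 10.4 CPM in cholangiocytes.

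Cxcl13, the attractant of B cells to follicles, was a Kupffer cell gene in these livers. It ran from 423 to 748 CPM with a median of 643, above scar-type macrophages (91.7 to 550 CPM) in 5 of 6 libraries. Cxcl16, a ligand that also exists as a transmembrane form, was shared by scar-type macrophages (291 CPM), LSEC (225 CPM), Kupffer cells (210 ± 30.1 CPM) and vascular endothelium (196 ± 8.29 CPM). Its spread between libraries was the smallest in vascular endothelium among these 4 classes. Pf4, known from platelets, was at 210 to 424 CPM in scar-type macrophages and at 3.11 to 835 CPM in monocytes. Xcl1, released by NK cells and activated T cells, ran from 1191 to 1976 CPM in the NK class and from 169 to 260 CPM in T cells.

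**Figure D2:**
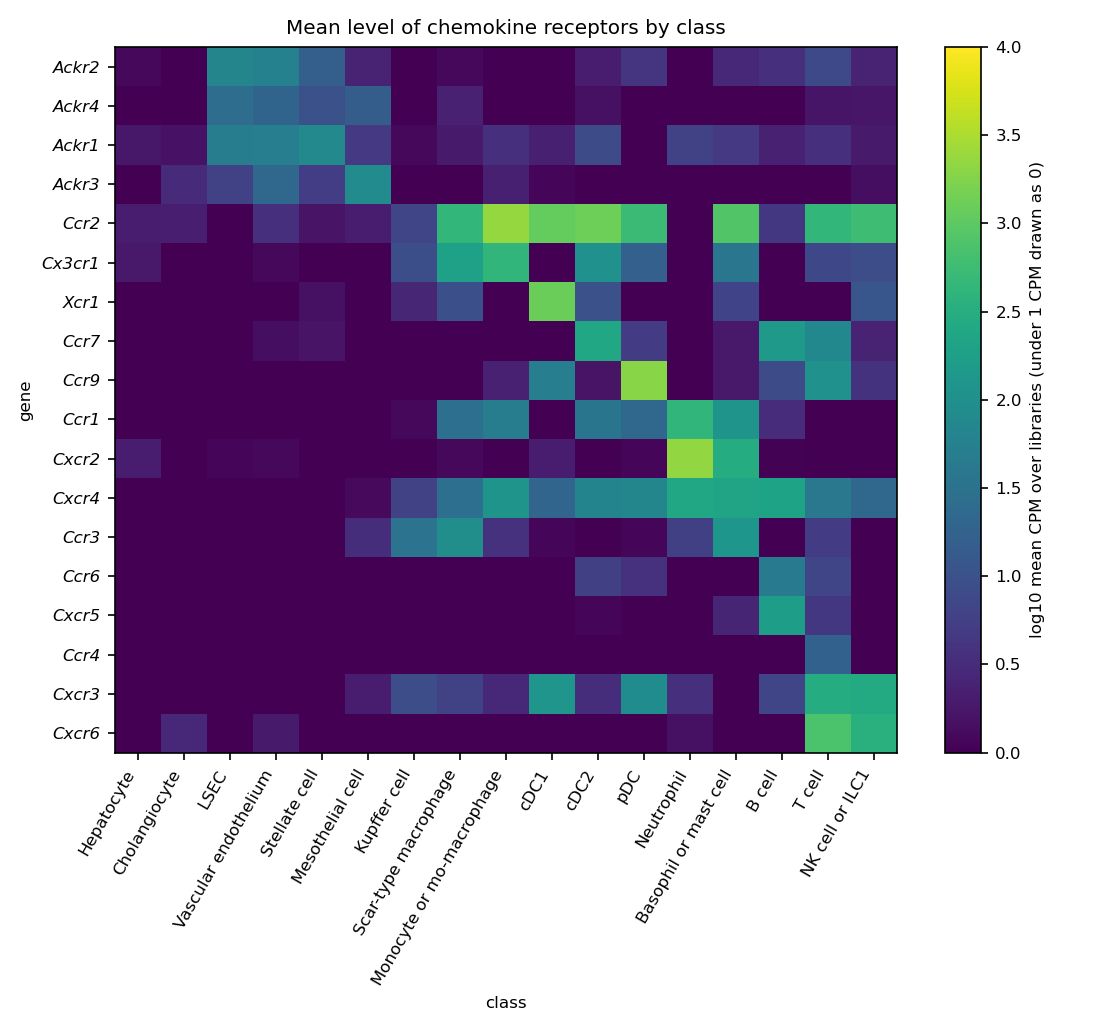
Mean level of 18 of the 19 receptors that reached 10 CPM (rows) in the 17 tested classes (columns), as log10 of the mean CPM over libraries, with means under 1 CPM drawn as 0. Cxcr2, Ccr9, Xcr1 and Ccr2 are brightest in neutrophils, pDC, cDC1 and monocytes, and the Ackr genes are brightest in endothelial, stellate and mesothelial classes.

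The signalling receptors all had a leukocyte class as their top class. Ccr2, the receptor of Ccl2 on inflammatory monocytes, ran from 1045 CPM in CWHM-12 3 to 3035 CPM in DMSO 1 in monocytes, and averaged 1298 CPM in cDC2 and 1137 CPM in cDC1. Cx3cr1, the receptor of fractalkine, was at 259 to 598 CPM in monocytes and 37.7 to 403 CPM in scar-type macrophages, lower in 6 of 6 libraries. Over the Kupffer class Cx3cr1 was low, at 0.660 to 18.1 CPM, with means of 2.01 CPM in its cluster 1 and 46.5 CPM in its cluster 4. Ccr1 was a neutrophil gene at 328 to 513 CPM. Ccr3, the eotaxin receptor, averaged 125 CPM in the basophil class and 95.4 CPM in scar-type macrophages, and the order was mixed between libraries.

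Several receptors were concentrated in a single class. Ccr9 in pDC, plasmacytoid dendritic cells, ran from 1364 to 2531 CPM, against 105 CPM in T cells. Xcr1, which lets cDC1 find cells that release Xcl1, was at 1023 to 1685 CPM in cDC1 and at 11.7 CPM in the NK class. Cxcr2 was at 1778 to 3043 CPM in neutrophils. Cxcr5, the receptor of Cxcl13, was at 118 to 202 CPM in B cells and 4.40 CPM in T cells. Ccr6 also was highest in B cells, at 9.33 to 76.8 CPM, and Ccr4 averaged 17.6 CPM in T cells and 0 in the next class.

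T cells shared Cxcr3, the receptor of Cxcl9 and Cxcl10, with the NK class, at 305 and 279 CPM, a gap within the spread of either. Cxcr6, the receptor of Cxcl16, was at 553 to 961 CPM in T cells and at 202 to 429 CPM in the NK class. Ccr7, which directs cells to lymphoid tissue, varied in cDC2 from 29.3 CPM in CWHM-12 3 to 853 CPM in DMSO 3, and averaged 143 CPM in B cells. Cxcr4 did not separate neutrophils (252 CPM), the basophil class (217 CPM) and B cells (212 CPM).

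The atypical receptors had their top class in LSEC, stellate cells or mesothelial cells. Ackr2, which takes up inflammatory CC chemokines, was at 62.3 to 73.3 CPM in LSEC and 28.2 to 83.8 CPM in vascular endothelium. Ackr4, which takes up Ccl19, Ccl21 and Ccl25, averaged 27.2 CPM in LSEC with a range of 11.8 to 60.8 CPM. Ackr1, which binds many inflammatory chemokines, was highest in stellate cells at 77.4 CPM, then in vascular endothelium (51.3 CPM) and LSEC (48.3 CPM). Ackr3, a scavenger of Cxcl12, was at 44.8 to 129 CPM in mesothelial cells and at 22.3 CPM in vascular endothelium.

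Of 37 listed pairs of ligand and receptor, 27 had both genes at 10 CPM or more in a tested class. In 26 of these the top class of the ligand was another than that of the receptor. Cxcl2 and Cxcr2, both highest in neutrophils, were the exception. The top classes of the members were spread over many classes, so most pairings of ligand and receptor would differ. No baseline was computed, and the count is a description. Cxcl12 in stellate cells faced Cxcr4 in neutrophils and B cells, Cxcl9 and Cxcl10 in LSEC faced Cxcr3 in T cells, and Cxcl13 in Kupffer cells faced Cxcr5 in B cells. Both genes of a pair could also reach 10 CPM in the same class. Cxcl12 and Cxcr4 did so in 9 classes, with neutrophils and B cells among them. Cxcl12 reached 10 CPM in 18 of 19 classes, and the part of stellate RNA in its low levels was not tested. These are levels of RNA and say nothing of contact between cells.

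Within LSEC, Cxcl9 and Cxcl10, ligands of Cxcr3, differed between clusters 0 and 2 in all 6 libraries. Cluster 2, led by Esm1 and Lyve1, held Cxcl9 at 1206 ± 185 CPM (SD, n = 6) against 492 ± 167 CPM in cluster 0, led by Cyp26b1 and Col13a1. Cxcl10 was at 352 ± 111 CPM and 139 ± 78.5 CPM in the same order. Cluster 8, also led by Esm1, was above cluster 0 for Cxcl9 in 6 of 6 libraries at 1016 CPM, but for Cxcl10, at 147 CPM, in only 3 of 6. Ackr4 ran the other way, at 16.6 ± 4.78 CPM in cluster 2 and 38.5 ± 15.5 CPM in cluster 0, also in 6 of 6 libraries, and Cxcl16 was nearly level at 237 and 212 CPM. LSEC markers summed to 24833 and 26118 CPM in these clusters, so both carried the class at like levels. The clusters took unequal shares of LSEC. Cluster 0 made up 4.17%, 11.3% and 19.2% of them in the 3 vehicle libraries, and 8.37%, 49.3% and 81.6% in the 3 treated libraries. Cxcl9 over all LSEC was lowest in CWHM-12 3 and CWHM-12 2, at 344 and 761 CPM, against 1114 to 1362 CPM elsewhere. In cluster 2 alone, a fit added after the data were seen, the log2 fold change of Cxcl9 by edgeR was -0.24 ± 0.19, against -0.60 ± 0.35 over all LSEC.

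Vascular endothelium was also split. Cluster 14, led by Fbln2, Selp and Rspo3, held Ackr2 at 92.0 ± 8.54 CPM against 16.9 ± 11.1 CPM in cluster 13, led by Gja5 and Efnb1, in 6 of 6 libraries. Cxcl10 was higher in cluster 14 in 6 of 6 libraries as well, at 167 and 83.3 CPM. LSEC markers were present in both clusters, at 17042 and 12641 CPM.

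Stellate clusters 7 and 15 differed in opposite directions. Cluster 7, led by Reln, Col1a1 and Col3a1, held Cxcl12 at 7033 ± 927 CPM and Cxcl14 at 685 ± 236 CPM, against 3191 ± 303 and 317 ± 98.3 CPM in cluster 15, led by Rgs5 and Colec11. Cxcl9 was at 25.7 CPM in cluster 7 and 504 CPM in cluster 15, and Ackr2 at 1.10 and 36.2 CPM, each in 6 of 6 libraries. LSEC markers summed to 812 CPM in cluster 7 and to 13113 CPM in cluster 15, and all 6 libraries showed that gap. Stellate markers summed to 52714 and 24145 CPM. The part of LSEC RNA in the cluster 15 values was not tested. Cluster 15 made up 26.6%, 33.1% and 16.7% of stellate cells in DMSO and 28.02%, 41.98% and 52.5% in CWHM-12.

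Kupffer clusters 1 and 4 differed as well. Cluster 1, led by Marco, Timd4 and Cd163, held more Cxcl13 (630 against 432 CPM), Ccl24 (206 against 141 CPM), Ccl3 (96.0 against 48.8 CPM) and Ccl7 (26.5 against 7.33 CPM), each in 6 of 6 libraries. Cx3cr1 was at 2.01 CPM in cluster 1 and 46.5 CPM in cluster 4, which was led by C1qa, Trem2 and Clec7a and had a median of 1422 UMIs per cell against 7724. In T cells, cluster 17, with Nkg7 and Il2rb among its leading genes, held Cxcr6 at 1055 CPM, Xcl1 at 309 CPM and Ccr2 at 607 CPM, against 208, 62.0 and 189 CPM in cluster 21, led by Il7r and Tcf7. Ccr7 was at 1.13 CPM in cluster 17 and 186 CPM in cluster 21, again in 6 of 6 libraries.

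**Figure D3:**
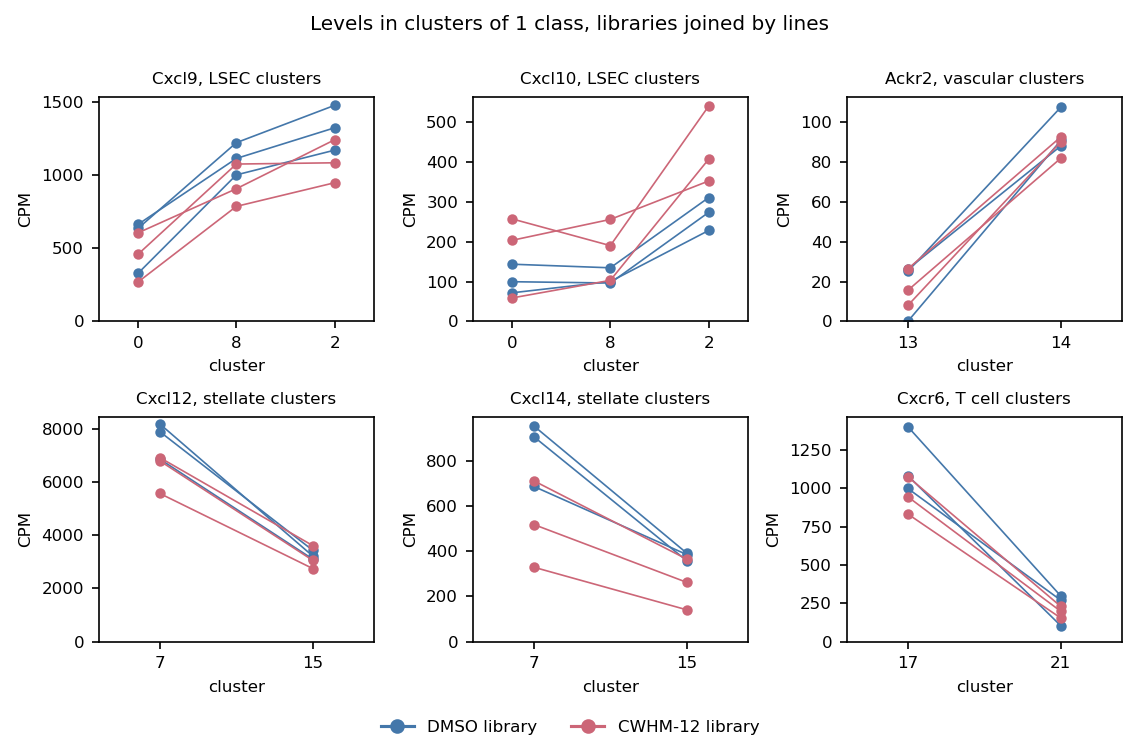
Level in CPM of 6 members (vertical axis, from 0) in clusters of a class (horizontal axis), with a line for each of the 6 libraries, blue for DMSO and red for CWHM-12. In every library Cxcl9 and Cxcl10 are higher in LSEC cluster 2 than in cluster 0, Ackr2 is higher in vascular cluster 14 than in 13, and Cxcl12, Cxcl14 and Cxcr6 are higher in the first cluster shown.

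Treatment was compared within each class over libraries, with batch in the model. Of 210 pairs of member and tested class, covering 48 members, 1 passed edgeR's quasi-likelihood test at an adjusted p of 0.05, against 0.0155% of all 116333 pairs of gene and class. That count was 5 without DMSO 1, 4 without DMSO 2, and 0 without DMSO 3, CWHM-12 2 or CWHM-12 3. At an unadjusted p of 0.05, 31 pairs passed, 11 higher (5.24%, against 1.31% of all pairs) and 20 lower in CWHM-12 (9.52%, against 1.41%). Together this was 14.8% of the members' pairs, against 2.72% of all pairs. All CWHM-12 libraries were above all DMSO libraries in 18 pairs (8.57%, against 6.3% of all pairs) and below them in 21 pairs (10%, against 6.68%). The median log2 fold change over the 210 pairs was -0.09. The leading values below are given as values that did not pass the adjusted test, apart from Cxcl12 in mesothelial cells.

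**Figure D4:**
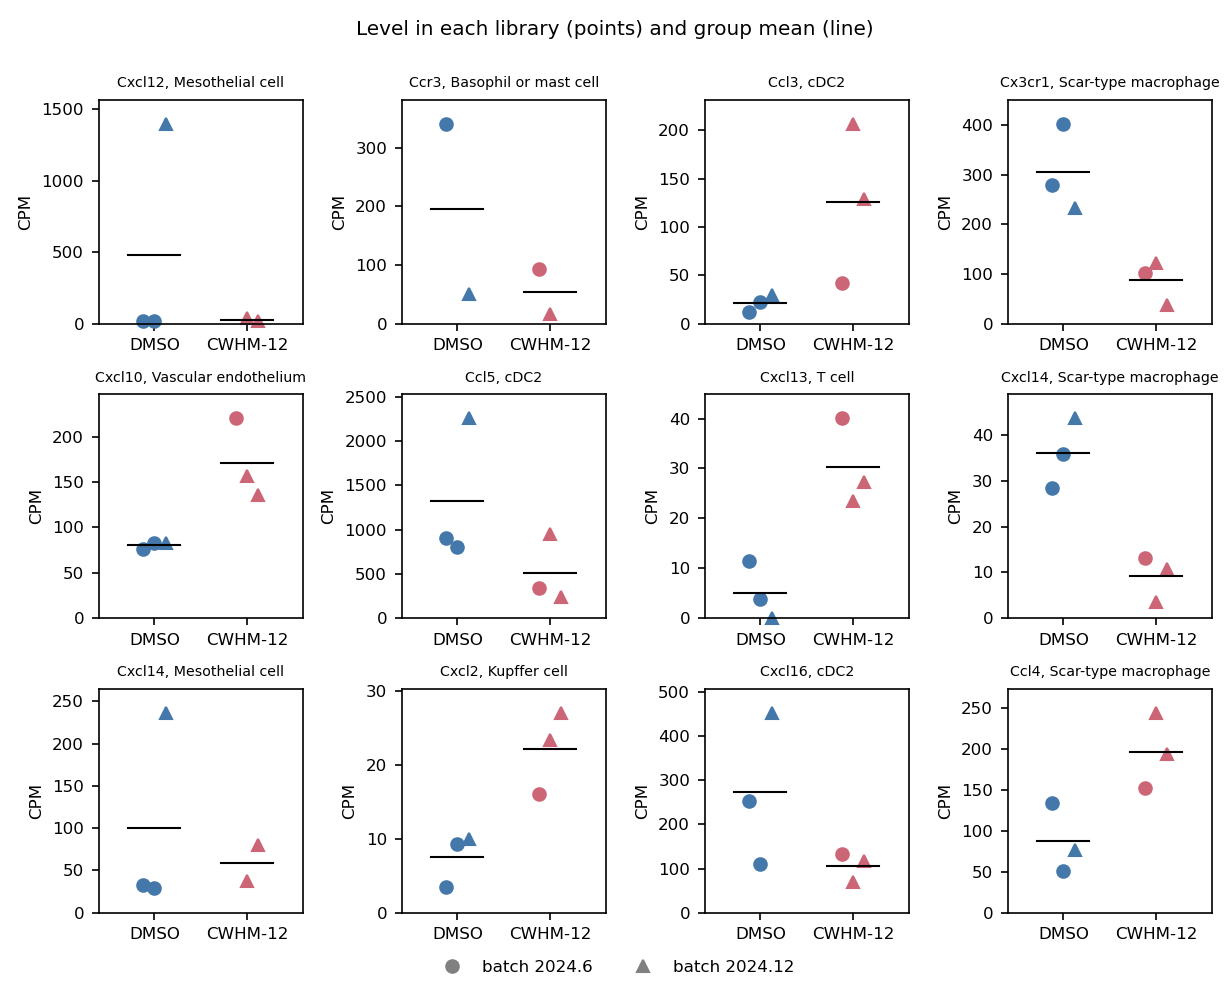
Level in CPM (vertical axis, from 0) in each library for the 12 pairs of member and class with the smallest p among those at 20 CPM or more, DMSO in blue and CWHM-12 in red, circles for batch 2024.6 and triangles for batch 2024.12, with a line at each group mean. Cxcl12 in mesothelial cells is set apart by the single DMSO 3 point at 1397 CPM, while Cx3cr1 in scar-type macrophages and Cxcl10 in vascular endothelium do not overlap between groups.

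Cxcl12 in mesothelial cells, the cells that cover the liver surface, was at 18.9, 19.8 and 1397 CPM in the vehicle libraries, in order of their numbers, against 38.0011 and 20.2 CPM in CWHM-12 2 and CWHM-12 3. CWHM-12 1 had too few cells and was left out. A single library, DMSO 3, stood high, and the other 4 were alike, so the groups overlapped. With CWHM-12 1 left out, batch 2024.6 held only vehicle libraries, so with the batch term the estimate, its SE and its p set DMSO 3 alone against CWHM-12 2 and CWHM-12 3. The log2 fold change was -5.64 ± 0.45 (SE; adjusted p = 0.00693 in edgeR's quasi-likelihood test, which called 0.0678% of the genes tested in this class), and no fit was possible without DMSO 3, which held 31 mesothelial cells. Without the batch term the adjusted p by edgeR was 0.547. Markers of stellate cells, where Cxcl12 is most abundant, summed to 13563 CPM in DMSO 3 against 6352 to 7942 CPM in the other libraries, and all 10 had the lower mean in CWHM-12. Kupffer cell markers were at 56.7 to 4045 CPM in DMSO and 6688 to 9554 CPM in CWHM-12, all 10 higher. Their part in the result was not tested. Cxcl14 in the same cells followed DMSO 3 too, at 33.1, 29.8 and 237 CPM against 38.0011 and 80.6 CPM (adjusted p = 0.464 by edgeR; 0.00122 without DMSO 1).

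In scar-type macrophages, 6 of 24 members had an unadjusted p under 0.05, against 2.87% of the 6652 genes tested in that class. Cx3cr1 was at 279, 403 and 233 CPM in DMSO and 102, 123 and 37.7 CPM in CWHM-12, where CWHM-12 3 held only 35 cells of this class. Each CWHM-12 library stood below each DMSO library, and the log2 fold change was -1.55 ± 0.34, with -1.69 in batch 2024.6 and -1.73 in batch 2024.12 (unadjusted p = 0.0007, adjusted p = 0.932 by edgeR). In Kupffer cells Cx3cr1 was lower at 15.3, 12.6 and 18.1 CPM against 6.34, 1.04 and 0.660 CPM, and in monocytes the groups did not overlap either, with a log2 fold change of -0.56. Cluster 4, which had the higher Cx3cr1 level of Kupffer clusters 1 and 4, made up 76.9%, 42.9% and 48.9% of them in DMSO and 69.9%, 12.2% and 6.37% in CWHM-12, and its part was not tested.

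Cxcl14 in scar-type macrophages was at 28.5, 35.8 and 43.6 CPM in DMSO and 13.1, 3.61 and 10.8 CPM in CWHM-12. The groups did not overlap (log2 fold change -2.004 ± 0.50). Cxcl14 was below in Kupffer cells as well, at 21.7, 17.4 and 34.3 CPM against 16.1, 11.6 and 15.5 CPM, and in hepatocytes at 11.6, 6.47 and 5.39 CPM against 4.33, 1.57 and 0.782 CPM. The part of stellate RNA in these low levels was not tested. Kupffer cluster 4, whose shares are given above, held Cxcl14 at 25.9 CPM and cluster 1 at 18.3 CPM. In cluster 1 alone the log2 fold change was -0.80 ± 0.26. In stellate cells, its main source, Cxcl14 was at 750, 520 and 805 CPM against 614, 371 and 206 CPM, which overlap (log2 fold change -0.77 ± 0.37, adjusted p = 1.00 by edgeR). Its lowest value was in CWHM-12 3, where cluster 15, the cluster with less Cxcl14, had its largest share, and in cluster 7 alone the log2 fold change was -0.69 ± 0.27. Stellate markers in the scar-type macrophage class ran from 112 to 308 CPM in DMSO and 203 to 312 CPM in CWHM-12, with 7 of 10 genes at the higher mean in CWHM-12.

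Other ligands of scar-type macrophages had values on both sides, none past the adjusted test. Ccl4 was at 133, 51.5 and 76.8 CPM in DMSO and 152, 244 and 194 CPM in CWHM-12, above in every library (log2 fold change 1.122 ± 0.35). Ccl24 was at 423, 76.1 and 149 CPM against 58.3, 70.4 and 96.9 CPM, with DMSO 1 far above the rest. Ccl7, highest in this class, had a log2 fold change of -0.85, also with an unadjusted p under 0.05 by edgeR. Ccl8 was at 5.34, 2.24 and 20.9 CPM against 1.46, 54.2 and 167 CPM. Its log2 fold change of 1.76 came from batch 2024.12 (2.05), was -0.58 in batch 2024.6, and turned to -1.30 without DMSO 3. Kupffer cell markers in this class ran from 12147 to 14619 CPM in DMSO and 8659 to 11937 CPM in CWHM-12, 8 of 10 lower, and their part was not tested.

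Cxcl2, which recruits neutrophils, was at 3.45, 9.28 and 10.0 CPM in Kupffer cells of DMSO and 16.1, 23.4 and 27.1 CPM in CWHM-12. All 3 treated libraries stood above, with like differences in both batches (log2 1.44 and 1.30), a log2 fold change of 1.36 ± 0.33, and an adjusted p of 1.00 by edgeR. Ccr3 in Kupffer cells was at 46.5, 66.0 and 38.2 CPM against 24.7, 23.4 and 4.95 CPM. The main Kupffer ligands overlapped: Cxcl13 was at 423, 661 and 509 CPM against 748, 626 and 679 CPM (log2 fold change 0.41 ± 0.20), and Ccl24 had a log2 fold change of -0.26 ± 0.20. In Kupffer cells 5 of 28 members had an unadjusted p under 0.05, against 1.88% of all genes tested there.

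In vascular endothelium, Cxcl10 was at 76.5, 82.8 and 82.9 CPM in DMSO and 220, 156 and 136 CPM in CWHM-12. The DMSO libraries were close together and all treated libraries stood higher, with a log2 fold change of 1.14 ± 0.21 (unadjusted p = 0.000708, adjusted p = 0.999 by edgeR) and log2 differences of 1.45 and 0.80 in the batches. In LSEC, the main source, Cxcl10 was at 214, 267 and 222 CPM against 360, 254 and 274 CPM, which overlap (log2 fold change 0.42 ± 0.17). Vascular clusters 13 and 14 differed in number between libraries (131 and 127, 95 and 96, and 48 and 287 cells in DMSO, and 75 and 68, 267 and 225, and 305 and 70 in CWHM-12). Cxcl10 was at 50.003, 59.5 and 42.021 CPM in cluster 13 of DMSO and 150, 69.6 and 129 CPM in CWHM-12, and at 102, 98.1 and 86.1 CPM against 321, 239 and 158 CPM in cluster 14, so no treated library overlapped with DMSO in either cluster. LSEC markers in the vascular class were at 14571 to 19264 CPM in DMSO and 13414 to 16128 CPM in CWHM-12. Ackr1, the receptor that carries chemokines across venular endothelium, was at 39.7, 26.9 and 25.4 CPM in vascular endothelium of DMSO and 47.7, 84.3 and 83.5 CPM in CWHM-12, above in all 3 (log2 fold change 1.13 ± 0.34). In this class 4 of 11 members had an unadjusted p under 0.05, all higher in CWHM-12, against 3.09% of genes in either direction and 1.53% of genes in that direction. The other members were Cxcl13 and Ccl6, which stayed under 20 CPM. Kupffer markers were also higher, at 259 to 369 CPM against 280 to 446 CPM, 10 of 10 genes, and their part was not tested.

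In the main sources no difference passed the adjusted test. Cxcl12 in stellate cells was at 5477, 5356 and 7253 CPM in DMSO and 4767, 4645 and 4739 CPM in CWHM-12. All CWHM-12 libraries stood below, by a log2 fold change of -0.41 ± 0.21 (unadjusted p = 0.0962, adjusted p = 1.00 by edgeR). In cluster 7 alone it was -0.37 ± 0.19. Cxcl9 in LSEC had a log2 fold change of -0.60 ± 0.35, Cxcl16 in LSEC of 0.00 ± 0.15, and Ccl5 in the NK class of 0.04 ± 0.25. In stellate cells 0 of 15 members had an unadjusted p under 0.05, against 1.94% of genes.

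**Figure D5:**
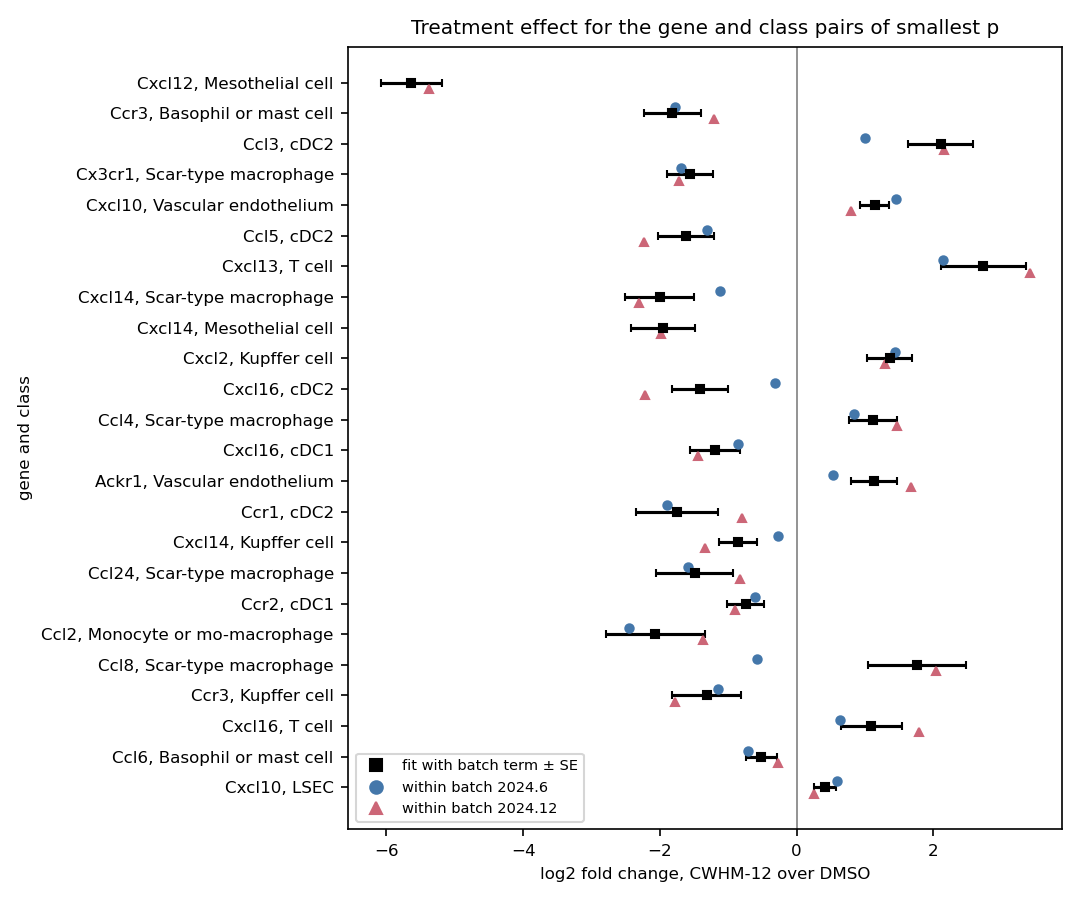
Log2 fold change of CWHM-12 over DMSO (horizontal axis) for the 24 pairs of member and class with the smallest p among those at 20 CPM or more, as the fit with a batch term and its SE (squares) and as the plain difference within batch 2024.6 (circles) and batch 2024.12 (triangles). Most pairs lie on the same side of 0 in both batches, and Ccl8 in scar-type macrophages does not. The pairs were picked by p in these same libraries, so this is a description and not separate support. The within-batch point of 2024.6 is missing for mesothelial pairs.

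The cDC2 class, with 23 to 61 cells in a library, held 4 of 13 members at an unadjusted p under 0.05, against 5.76% of the genes tested. Ccl3 was at 12.4, 22.1 and 29.7 CPM in DMSO and 42.4, 207 and 129 CPM in CWHM-12, higher in each (log2 fold change 2.11 ± 0.48, adjusted p = 0.116 by edgeR). Ccl5 was at 911, 806 and 2256 CPM against 339, 953 and 234 CPM, which overlap (log2 fold change -1.62 ± 0.41, adjusted p = 0.192 by edgeR), and this turned to 1.41 when classes were set from marker scores alone. Cxcl16 was at 254, 110 and 453 CPM against 133, 68.9 and 117 CPM. Without DMSO 2, the adjusted p by edgeR was 0.00217 for Ccl3, 0.000122 for Ccl5 and 0.000526 for Cxcl16. Ccr1 was at 74.3, 44.1 and 44.5 CPM against 9.08, 15.9 and 29.3 CPM, on 51 UMIs in all. Mature dendritic cells are known to make Ccl22 and Ccr7. Their markers, with no member among them, summed to 1995, 894 and 3933 CPM in DMSO and 990.1, 763 and 1189 CPM in CWHM-12, and 8 of 8 had the lower mean in CWHM-12. Their part was not tested.

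Smaller values completed the list. In cDC1, Cxcl16 was at 109, 106 and 122 CPM in DMSO and 57.1 and 41.2 CPM in CWHM-12 1 and 2, and Ccr2 at 1252, 1444 and 1380.0 CPM against 877 and 734 CPM. Neither gene overlapped between groups, and CWHM-12 3 had too few cells. Ccl2 in monocytes was at 49.8, 59.7 and 67.6 CPM against 4.46, 48.6 and 8.10 CPM, on 58 UMIs. In the basophil class, Ccr3 was at 341 and 50.4 CPM in DMSO 1 and DMSO 3 and 92.5 and 15.99 CPM in CWHM-12 1 and 2, and Ccl6 at 3450 and 466 CPM against 2107 and 384 CPM, so the batches differed more than the treatments. In T cells Cxcl13 was at 11.5, 3.94 and 0 CPM against 40.1, 23.6 and 27.2 CPM, and Cxcl16 at 31.8, 37.4 and 2.92 CPM against 55.1, 23.6 and 11.3 CPM. Kupffer cell markers in the T cell class summed to 134 to 691 CPM in DMSO and 472 to 973 CPM in CWHM-12, 10 of 10 higher, and their part in the Cxcl13 value was not tested. LSEC markers there, given above, were also lowest in DMSO 3 and highest in CWHM-12 1, as was Cxcl16, and their part was not tested.

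Whether treatment acted differently on members in different classes was tested on differences within libraries. Between LSEC and Kupffer cells, 0 of 10 members passed limma's test (0% of 10320 genes); between LSEC and stellate cells, 0 of 11 (0% of 9791 genes); and between Kupffer and stellate cells, 0 of 9 (0% of 9406 genes). None of the members had an unadjusted p under 0.05 there by limma, where 5.71%, 5.46% and 4.42% of genes did. The smallest p was for Cxcl10 in LSEC against Kupffer cells, a log2 difference of 0.57 ± 0.25 (unadjusted p = 0.0635, adjusted p = 0.892 by limma).

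The genes that serve chemokine signals were read from 3 lists. In LSEC, Kupffer cells and stellate cells none of the tested genes passed edgeR's adjusted test, with 17, 23 and 17 genes of receptor signalling tested, 15, 18 and 15 of transcription, and 10, 11 and 10 of processing and presentation. At an unadjusted p under 0.05 by edgeR were 2, 1 and 0 genes of the first list, 1 of the second in each class and 0 of the third, where 2.43%, 1.88% and 1.94% of all genes tested in these classes passed. For the inducers and feedback genes of chemokine transcription, the median log2 fold change was 0.29 in LSEC, 0.21 in Kupffer cells and 0.28 in stellate cells, against 0.02, 0.01 and 0.00 over all genes. Socs3, a feedback inhibitor of cytokine signals, was at 26.9, 61.0 and 87.6 CPM in LSEC of DMSO and 90.0, 116 and 153 CPM in CWHM-12, above in all 3, and in stellate cells at 24.5, 51.5 and 46.8 CPM against 57.2, 79.2 and 77.4 CPM. Relb, an NF-κB subunit, was at 13.6, 8.33 and 11.2 CPM in stellate cells against 23.3, 20.3 and 23.5 CPM (log2 fold change 1.00 ± 0.30, adjusted p = 1.00 by edgeR). In the receptor signalling list, Gng2, a G protein subunit, was at 80.6, 93.4 and 90.7 CPM in LSEC of DMSO and 63.9, 47.1 and 21.8 CPM in CWHM-12.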

How the data were processed

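The authors deposited whole-number counts of UMIs per gene and barcode for 6 BD Rhapsody libraries, per the file headers. The submitters' processing notes name build GRCm39. Neither aligner nor annotation release is given in the sources used here. Barcodes with 300 genes and 500 UMIs or more, of which no more than 30% were mitochondrial, were taken as cells (38697), and 715 with a Scrublet score (scanpy 1.11.5) above 0.25 were removed, a score set because the automatic thresholds marked only 0.223% to 1.55% of a library. Clustering used 2000 variable genes without the members, 40 principal components, 20 neighbours and Leiden resolution 1.5 (leidenalg 0.10.2), without integration. Clusters were named from marker lists and their leading genes, and 7 stayed unnamed.

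Counts were summed per class and library, with at least 20 cells, and fitted with edgeR 4.0.16 (quasi-likelihood, TMM, filterByExpr, batch term, R 4.3.3), with Benjamini-Hochberg adjustment over all genes of a class. SEs were worked back from F. Differences between classes used limma 3.58.1 on log2 CPM with a prior count of 2. Named were all members at 10 CPM in their top class, the members that passed, and the 24 pairs of smallest p at 20 CPM or more. Pairs under 20 CPM, the level comparisons of clusters and Cxcl12, Cxcl9, Cxcl13, Cxcl14, Ccl7 and Ccl5 in their main sources were added after their values were seen. Members and lists were chosen with earlier results of these data known. The levels of 1 member are not reported here. Scripts were checked on simulated data. There the edgeR fit called 11.5%, 9.18% and 7.22% of log2 changes of 1 in LSEC, Kupffer cells and stellate cells. For log2 changes of 2 it called 85.3%, 75.5% and 78.6%. A pair that did not pass may thus still have changed. RefSeq sequences (GRCm38.p6) served for promoters only. In these sums fewer cells of a state and less RNA per cell cannot be told apart, and the number of libraries limits the precision. Alternatives were no batch term, the replicate number as a block, DESeq2 1.42.0, voom, other size factors, no count filter, a stricter cell filter (500 genes, 1000 UMIs, 15% mitochondrial), doublets kept, classes from marker scores, and leaving out each library.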

Additional observations from a re-analysis of the deposited data

Results flagged for a closer look

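The 7 clusters that were left unnamed also held member transcripts, and each is listed with the member highest in it, as a mean over libraries. Cxcl9 was at 528 CPM in cluster 12, whose cells had a median of 12361 UMIs and carried both Kupffer markers (14310.0 CPM) and LSEC markers (10062 CPM). Cxcl12 was at 1699.8 CPM in cluster 22, with a median of 14144 UMIs and markers of stellate cells (13198 CPM) and Kupffer cells (13113 CPM). Cxcl9 was at 603 CPM in cluster 19, which was led by genes of the exocrine pancreas such as Ctrb1 and Cpa1, and at 607 CPM in cluster 38, which had LSEC markers but was led by hepatocyte genes. The 3 clusters of dividing cells held Ccl6 at 455 CPM (cluster 26), Cxcl9 at 273 CPM (cluster 33) and Ccl5 at 2446 CPM (cluster 41, 33 cells). None of them entered a class, apart from an alternative fit with cluster 12 among the Kupffer cells.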

How the results depend on the processing

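The count of members that passed the treatment test, 1 over 17 classes, was 0 without the batch term, 23 with no filter on low counts, 5 under the stricter filter on cells and 0 where marker scores alone set the classes, and it ran from 0 to 5 when each library was left out. It was 1 with DESeq2, voom, the other size factors or doublets kept. In the classes refitted after seeing the data it was 0 as before: Kupffer cells with cluster 12 added, and single clusters of LSEC (cluster 2), stellate cells (7) and Kupffer cells (1). With the replicate number as a block in place of the batch it was 0 over 15 classes. The labels do not say that libraries of the same number form a pair. Deviations of such libraries correlated by 0.13, -0.05 and -0.02 in LSEC. These values were 0.31, -0.02 and -0.02 in Kupffer cells and 0.18, 0.10 and -0.03 in stellate cells. Libraries numbered 1 share a batch, as do those numbered 3, so pairing and batch cannot be told apart there. The block is given as a setting only. No member passed the test between classes under any alternative there (no batch term, prior count 0.5). Of 340 alternative values of the 24 fold changes, 313 kept direction and call, 6 lost the call (all Cxcl12 in mesothelial cells), 19 gained it and 2 turned: Ccl5 in cDC2 to 1.41 with marker-score classes, and Ccl8 in scar-type macrophages to -1.30 without DMSO 3 (up to 2.27 without CWHM-12 1). Apart from Cxcl12 in mesothelial cells, none of these pairs passed in the main fit, so a kept call there means not passing again. All settings also reuse the same libraries. Cxcl12 in mesothelial cells was -4.09 without the batch term, -3.34 with the block and -2.22 with marker-score classes, with adjusted p of 0.547, 0.733 and 0.745 by edgeR. The cause was not tested. Of 188 alternative levels, 175 moved by less than their SD. Neutrophil and basophil fits could not be made with the block, nor could some fits without a library in the classes of few cells.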
